A study of Mus musculus with 47 samples.

Results

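The chaperonins described here are the 8 subunits of the cytosolic chaperonin CCT (Tcp1, Cct2, Cct3, Cct4, Cct5, Cct6a, Cct7 and Cct8) and the mitochondrial pair Hspd1 and Hspe1. Their members were taken as the 3′ UTR rows whose RefSeq mRNA name maps to one of these 10 genes, which gave 11 transcripts of 28190 in the tables. The 2 Tcp1 transcripts share 1 interval and the same counts, so Tcp1 is counted once. The cells were P19, a mouse embryonal carcinoma line, either undifferentiated (D0) or after 6 days in NDiff 227 medium with 500 nM retinoic acid (D6). RNA was labeled with the uridine analog 4sU, 20 µM at D0 and 500 µM at D6, and a chemical step turned 4sU into a T-to-C conversion in 3′ end reads (SLAM-seq). An anabolic assay followed cells after 4sU was added, and a catabolic assay followed cells after 15 h of 4sU once the analog had been removed (1 passage of the study's methods gives a shorter labeling time). Each assay had 4 time points per state with 3 libraries each, except the third catabolic time point at D6 with 2, which made 47 libraries in 16 groups. The 4sU dose and the state changed together, so they cannot be told apart in conversion rates or in reads of cells given 4sU.

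CCT is a double ring with one copy of each subunit per ring, and it folds newly made actin, tubulin and other proteins in the cytosol. Hspd1 encodes the ring-forming chaperonin of the mitochondrial matrix, and Hspe1 encodes the co-chaperonin that closes its chamber. Hspd1 and Hspe1 lie head to head on chromosome 1, so a shared stretch of DNA serves as promoter for both genes. Heat shock factors bind repeats of the letters NGAAN placed in alternating orientation, which make up a heat shock element.

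The shared stretch is shown because the 2 mitochondrial genes had the largest log2 fold changes of the 10 between the states in the libraries without 4sU. The RefSeq promoter windows (GRCm38, 250 bases before to 50 after each gene start) of Hspe1 and of one Hspd1 start overlapped over 285 of their 300 bases. Both held the 4-unit element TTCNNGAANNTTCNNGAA, searched on both strands, at chr1:55088059-55088076 within the printed stretch chr1:55088053-55088082. It lay at bases -89 to -72 from the Hspe1 start and -144 to -127 from the second of the 2 Hspd1 starts in RefSeq, whose window is the one that overlaps, counted with the start as 0. The window of the other Hspd1 start did not hold it. Capitals mark the fixed letters of the element, and the first 2 lines are the 2 strands of one site.
Hspe1, plus strand: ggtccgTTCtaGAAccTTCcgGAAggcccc
Hspd1, minus strand: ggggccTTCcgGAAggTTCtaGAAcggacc
Cct6a, chr5:129787369-129787398, plus strand: gcgtaagacttTTCgaGAAgaccccgcaga
Cct5, chr15:31601862-31601891, minus strand: acagcggccgaTTCcaGAAgctactctgcg
Of 32851 promoter windows of 300 bases, 5 held the 4-unit element (0.0152%), and 2 of these 5 were the Hspd1 and Hspe1 windows. The 3-unit form TTCNNGAANNTTC, which overlaps the 4-unit form, occurred in 198 windows (0.603%) and in no window of a CCT subunit. The 2-unit core TTCNNGAA, which both longer forms contain, occurred in 2799 windows (8.52%), among them those of Cct5 and Cct6a printed above. The letters CCAAT stood in 12289 windows (37.4%), among them those of Cct3, Cct6a, Cct7, Hspd1 and Tcp1. The 10 genes had 12 such windows, and Cct4 had none.

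The D0 libraries held 3447888 to 11677046 reads on 3′ UTRs and the D6 libraries 1489528 to 7930149. Markers of cell types were read in the libraries without 4sU. The summed reads of 9 pluripotency markers lay between 1213 and 1791 RPM at D0 (RPM, reads scaled to a fixed total of reads on 3′ UTRs per library) and between 7.77 and 30.9 at D6, while 2 of the 9, Zfp42 and Dppa5a, were at 0 in both. The summed reads of 10 neuronal markers lay between 724 and 861 RPM at D0 and between 10474 and 11798 at D6. Those of 6 neural progenitor markers lay between 478 and 1156 RPM at D0 and between 2280 and 2683 at D6. Of these 6, only Hes5 (means 0.80 and 755 RPM) and Fabp7 (2.33 and 173) passed as higher in the test given below. Vim (779 and 1400) did not pass, and Pax6 had means of 24.3 and 20.7. Those of 10 markers of other lineages, 6 of them at 0, lay between 91.8 and 143 RPM at D0 and between 1.31 and 9.60 at D6. Of 7 glial markers 4 were at 0 in all 6 of these libraries, and the list summed to 4.36 to 65.6 RPM at D0 and 32.2 to 64.4 at D6. The RNA came from whole cultures, in which fewer cells of a type and less RNA per cell cannot be told apart. The part of these marker shifts in the chaperonin values was not tested.

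Without 4sU, every one of the 10 chaperonin genes had a log2 fold change below 0 at D6 against D0. Of these, 5 passed the test as lower (Tcp1, Cct2, Cct6a, Hspd1 and Hspe1) and none passed as higher (edgeR's quasi-likelihood test, 3 libraries against 3, Benjamini-Hochberg adjustment over 16091 transcripts, adjusted p up to 0.05). Over all transcripts 5.40% were called lower and 7.74% higher. Of the 998 transcripts read at least as deeply as the least read CCT subunit, 22.0% were called lower and 59.9% had a log2 fold change below 0. All 3 D6 libraries lay below all 3 D0 libraries in 9 of the 10 genes, Cct5 being the exception, and in 17.1% of all transcripts.

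**Figure D1:**
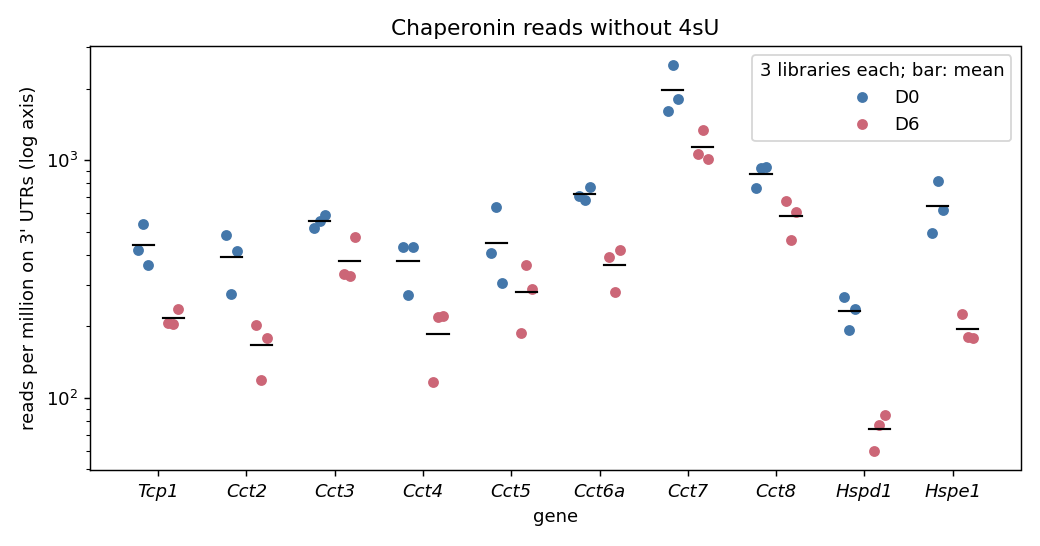
RPM on 3′ UTRs (log axis) of the 10 chaperonin genes in the 3 D0 and the 3 D6 libraries without 4sU, where each point is a library and each bar a mean. The D6 points lie below the D0 points in every gene but Cct5, whose groups overlap, and the widest gaps are those of Hspd1 and Hspe1.

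Hspe1 and Hspd1 fell most of the 10 genes in these libraries. Hspe1 (interval chr1:55091121-55091317, plus strand, in mm10) had 495, 816 and 618 RPM in the D0 libraries and 225, 180 and 178 in the D6 libraries. These groups were far apart, and the fold was 3.39 lower at D6 (log2 fold change -1.76 ± 0.30 SE, adjusted p = 0.00317). Hspd1 (chr1:55077834-55078287, minus strand) had 267, 193 and 236 RPM at D0 and 59.8, 76.6 and 85.0 at D6, again with no overlap. Its fold was 3.13 lower (log2 -1.65 ± 0.31 SE, adjusted p = 0.00563). Both genes kept their call when any one of the 6 libraries was left out, with adjusted p from 0.00446 to 0.0327 for Hspd1 and from 0.00260 to 0.0222 for Hspe1. The annotation names 5 pseudogenes of Hspd1 and 6 of Hspe1, while the tables counted 0 multimapped reads, so reads that a pseudogene shares exactly would be missing in both states. In the fit to all 47 libraries, read at the same 6 libraries, Hspe1 kept its call and Hspd1 did not (log2 -1.60 ± 0.62 SE, adjusted p = 0.0974).

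Among the CCT subunits, Cct2, the beta subunit (chr10:117050998-117051245, minus strand), had the lowest log2 fold change. It had 483, 274 and 414 RPM at D0 and 202, 119 and 178 at D6. The lowest D0 library was above the highest D6 library, and the fold was 2.33 lower (log2 -1.22 ± 0.29 SE, adjusted p = 0.0195). Tcp1, the alpha subunit (chr17:12924477-12925067, plus strand), had 419, 541 and 361 at D0 and 208, 205 and 236 at D6. Its D6 libraries were close together and all below D0 (log2 -1.06 ± 0.29 SE, adjusted p = 0.0340). Cct6a, the zeta subunit (chr5:129845821-129846443, plus strand), had 708, 681 and 771 at D0 and 391, 280 and 421 at D6. Its D0 libraries were the closest to each other of these 3 genes (log2 -0.99 ± 0.24 SE, adjusted p = 0.0210). With 1 of the 6 libraries left out, Tcp1 passed in 1 of 6 fits, Cct2 in 2 and Cct6a in 3, and all 3 were lost without the D6 library 38.

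The other 5 subunits did not pass the test. Cct4, the delta subunit (chr11:23003152-23003336, plus strand), had 431, 272 and 430 RPM at D0 and 117, 219 and 221 at D6 (log2 -1.001 ± 0.320 SE, adjusted p = 0.0654). Its gene runs 444 bases beyond the counted interval in the annotation. Leaving out the D0 library 56 brought its adjusted p to 0.0368. Cct7, the eta subunit (chr6:85468278-85468477, plus strand), had 1613, 2514 and 1816 at D0 and 1067, 1341 and 1013 at D6 (log2 -0.82 ± 0.28 SE, adjusted p = 0.0766). Cct5, the epsilon subunit (chr15:31590884-31590927, minus strand), had 406, 634 and 305 at D0 and 188, 362 and 287 at D6, so that the groups overlapped (log2 -0.72 ± 0.38 SE, adjusted p = 0.280). Its counted interval was 44 bases long, and the annotated gene runs 84 bases further. Cct8, the theta subunit (chr16:87483325-87483987, minus strand), had 768, 926 and 938 at D0 and 673, 462 and 607 at D6 (log2 -0.61 ± 0.24 SE, adjusted p = 0.133). Cct3, the gamma subunit (chr3:88321549-88321766, plus strand), had 519, 553 and 587 at D0 and 331, 327 and 474 at D6 (log2 -0.56 ± 0.25 SE, adjusted p = 0.193). For these 5 genes the D6 means were all below the D0 means, but no difference passed after adjustment over all transcripts. In all of them but Cct5 the D6 libraries lay below the D0 libraries. The unadjusted p of edgeR's test in those genes ran from 0.0101 (Cct4) to 0.0494 (Cct3). The intervals overlapped the 3′ UTR of the named gene in GENCODE, except that of Cct6a, which overlapped an exon of the gene but no annotated UTR. Exons of Acat3 and of Usp16 lie on the opposite strand of the Tcp1 and Cct8 intervals, and whether counting used the strand is not given in the sources used here.

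Without 4sU the 8 CCT log2 fold changes lay close to each other. They ran from -1.22 to -0.56 with a median of -0.91 and an SD of 0.23. Over all 16091 transcripts the median was -0.04 and the SD 2.32, and over the 998 deeply read ones the median was -0.22 and the SD 1.92. Summed over the 8 subunits, the reads were 5788 ± 544 RPM at D0 and 3311 ± 130 at D6 (SD, n = 3). The share of each subunit in this sum moved by less than 2 SD of the D0 libraries, where the SD came from 3 libraries. Cct7 made up 33.9% ± 4.8 of the CCT reads at D0 and 34.5% ± 5.5 at D6 (SD, n = 3). Cct2 made up 6.90% ± 2.41 at D0 and 5.05% ± 1.38 at D6, and Cct8 15.2% ± 1.3 and 17.6% ± 3.6. Cct3 made up 9.60% ± 0.90 and 11.4% ± 2.1. The shares were not tested. Over all libraries the Cct2 share ran from 2.73% to 9.85% at D0 and from 0.148% to 13.3% at D6. The mean Tcp1 share was 7.57% at D0 and 6.53% at D6 without 4sU, but 6.22% and 7.06% over all libraries. Subunits share libraries and are not replicates, so these are descriptions.

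The other 7 conditions were separate libraries of cells given 4sU, sampled during labeling or after its removal. Their reads compare D6 with D0 at unlike doses of 4sU, so state and dose cannot be told apart there. In a fit to all 47 libraries, 77 of the 80 pairs of gene and condition had a log2 fold change below 0, and 31 of 80 passed as lower and 0 as higher. Over all transcripts and the same 8 conditions 5.68% of tests were called lower. The D6 libraries lay below all D0 libraries of the condition in 68 of the 80 pairs, and in 21.6% of the pairs of all transcripts. These shares cover transcripts of all depths and were not matched to the reads of the members. Without 4sU the share called lower was 5.40% over all transcripts and 22.0% among the deeply read ones. In the anabolic assay 3, 4, 4 and 3 of the 10 genes passed as lower at the 4 time points in turn, where 3.87%, 5.24%, 3.95% and 6.06% of transcripts were called lower and 6.30%, 5.75%, 6.43% and 5.76% higher. In the catabolic assay 2, 7, 4 and 4 genes passed, where 4.55%, 4.40%, 12.5% and 4.86% were called lower and 5.54%, 5.16%, 7.03% and 5.90% higher. Hspe1 passed in 7 of the 8 conditions, Cct4, Cct6a and Cct7 in 4 each, Cct2, Cct3, Cct8 and Hspd1 in 3 each, and Cct5 and Tcp1 in 0. This fit called 3 genes in the libraries without 4sU (Cct6a, Cct7 and Hspe1) where the 6-library fit called 5. The 3 values not below 0 were those of Tcp1 at the third anabolic time point (0.01) and of Cct6a (0.26) and Cct8 (0.01) at the third catabolic time point. The latter condition had the 2 D6 libraries with 1489528 and 1966286 reads, and the median of all transcripts there was -0.82, against -0.12 to 0 in the other 7 conditions. Without it 27 of 70 pairs passed as lower. The subunits lay further apart in some of these conditions: the SD over the 8 was 0.58 at the third anabolic (-1.63 to 0.01), 0.77 at the third catabolic (-2.16 to 0.26) and 0.55 at the last catabolic time point (-1.962 to -0.221), and 0.18 to 0.34 in the other 5 conditions.

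**Figure D2:**
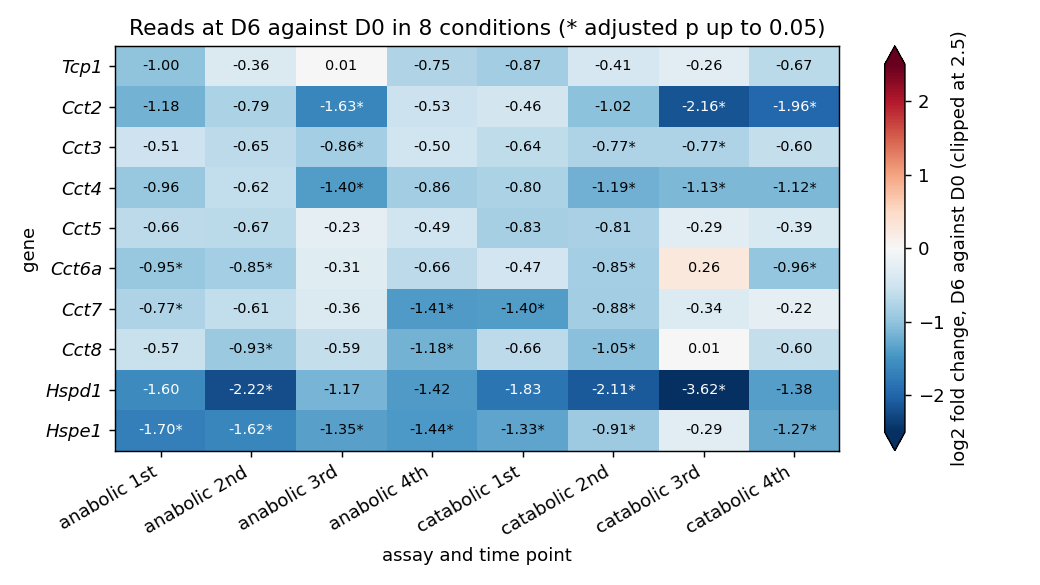
Log2 fold change of reads at D6 against D0 for each chaperonin gene (rows) in each assay and time point (columns) from the fit to 47 libraries, where blue is lower at D6 and an asterisk marks an adjusted p up to 0.05. The cells are blue but for 3 near or above 0, 2 of them at the third catabolic time point, and Hspe1 carries 7 asterisks.

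The mean of the 8 differences was added after seeing the data, because single conditions rest on 2 or 3 libraries. All 10 genes passed as lower on this mean, where 27.7% of transcripts did and 17.4% passed as higher. The shares over all transcripts in this paragraph were not matched for depth. The values ran from -1.92 ± 0.23 (SE) for Hspd1, -1.24 ± 0.10 for Hspe1 and -1.22 ± 0.19 for Cct2 to -0.54 ± 0.12 for Cct5 and -0.54 ± 0.13 for Tcp1, with adjusted p from 8.45e-16 (Hspe1) to 0.000626 (Tcp1). Over the CCT subunits the median was -0.68 and the SD 0.24, and over all 20699 transcripts the median was -0.34. Without the third catabolic time point all 10 again passed, where 23.6% of transcripts did and 19.6% passed as higher. The median of the subunits was then -0.76 and that of all transcripts -0.16. Taken library by library, all 23 D6 values lay below all 24 D0 values in Cct7 and Hspd1, a pattern found in 2.11% of transcripts. Cct7 spanned 1506 to 2885 RPM at D0 and 392 to 1504 at D6, so that its 2 ranges almost touched. Hspd1 spanned 129 to 267 at D0 and 0.544 to 124 at D6, and its lowest library held a single read, so its D6 values are the least precise of the 10.

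Other chaperone genes were read from lists chosen with earlier results of these data known, with 1 transcript a gene. Among 10249 genes so counted, 709 were called higher and 587 lower in the libraries without 4sU, and the median log2 fold change was -0.10. On the mean of 8 conditions, given beside each list, 27.7% of all transcripts passed as lower and 17.4% as higher. Of 6 subunits of prefoldin, which hands unfolded actin and tubulin to CCT, 0 passed in either direction and the median was 0.27. On the mean of 8 conditions 2 of the 6 passed as higher and 1 as lower. Of the CCT cofactors and paralogs 5 of 7 could be tested and 0 passed, at a median of 1.28, and on the mean of 8 conditions 0 of 6 passed, at a median of -0.20. Of 17 proteins known to be folded by CCT, 3 passed as higher and 2 as lower, and on the mean of 8 conditions 7 and 4. Tubb3, a beta tubulin of neurons, rose 8.83-fold from 122 ± 30 to 1064 ± 13 RPM (SD, n = 3), and Tubb2b rose 7.25-fold from 1208 ± 178 to 8884 ± 1761. Tubb4b fell 3.24-fold from 339 ± 149 to 108 ± 48, and Tuba1b fell 2.95-fold from 1858 ± 576 to 625 ± 401. The calls of Tubb3 and Tubb2b held with any 1 of the 6 libraries left out. That of Tubb4b was lost without the D6 library 37 or 38 or the D0 library 56, and that of Tuba1b without the D6 library 37 or 38 or the D0 library 57. Without the D6 library 39 the log2 fold change of Tuba1b was -2.21, against -1.56 with it. Tubulin genes resemble each other closely, and reads shared between copies would be missing from the counts.

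Of 18 tested genes for mitochondrial chaperones, proteases and import, 2 passed as lower and 0 as higher, at a median of -0.69, and on the mean of 8 conditions 12 of 19 passed as lower. Hspa9, the Hsp70 of the mitochondrial matrix, fell 3.28-fold from 547 ± 86 to 166 ± 26 RPM (SD, n = 3; adjusted p = 0.00137). Tomm40, the channel of the outer membrane, fell 2.48-fold from 405 ± 208 to 159 ± 33 (adjusted p = 0.0450). Its call was lost without any one of the 6 libraries but the D0 library 56, with reads summed per gene (adjusted p = 0.0591) and in the fit to 47 libraries (adjusted p = 0.0719). Of 16 tested cytosolic heat shock proteins and cochaperones 7 passed as lower and 0 as higher, at a median of -1.02, and on the mean of 8 conditions 13 of 19 passed as lower. Hspb1, a small heat shock protein, fell 18.5-fold from 187 ± 38 to 10.3 ± 8.5, and Ahsa1, which stimulates the ATPase of Hsp90, fell 3.91-fold from 337 ± 75 to 86.9 ± 54.9. The call of Ahsa1 was lost without the D6 library 37 or 39, and without the D6 library 38 its log2 fold change was -2.57, against -1.97 with it. Of 12 chaperones of the endoplasmic reticulum 3 passed as lower and 0 as higher (7 as lower on the mean of 8 conditions), at a median of -0.45, among them Calr (1.999-fold lower) and P4hb (1.92-fold lower). Both calls were lost without any one of the D6 libraries, and that of P4hb also without the D0 library 55 or 57. Of 6 stress transcription factors 0 passed, and on the mean of 8 conditions 1 passed as higher and 2 as lower. Hsf1, which binds heat shock elements and was picked out after its values were seen, had 25.1 ± 24.6 RPM at D0 and 2.48 ± 3.93 at D6 (log2 -3.29 ± 1.79 SE, adjusted p = 0.296). On the mean of 8 conditions Hsf1 passed as lower (log2 -2.09, adjusted p = 0.00457). Hsf2, another heat shock factor of the list, had 174 ± 50 RPM at D0 and 232 ± 36 at D6 (log2 0.38 ± 0.34 SE, adjusted p = 0.573).

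**Figure D3:**
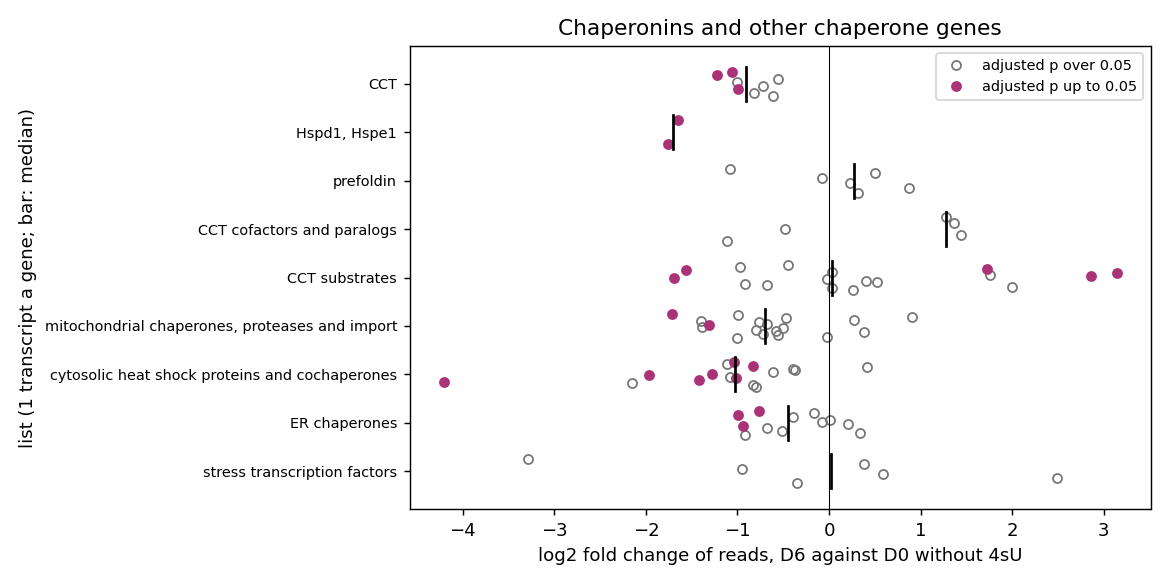
Log2 fold change of reads at D6 against D0 without 4sU for each gene of the chaperonins and of 7 other lists, where filled points have an adjusted p up to 0.05 and bars mark list medians. The CCT points cluster between -1.22 and -0.56, Hspd1 and Hspe1 lie further left, and the CCT substrates spread to both sides of 0.

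The genes whose reads varied most like the mean CCT subunit over the 16 group means were Igf2bp1 (Pearson's r = 0.987), Ldb2 (0.985), Etv5 (0.984), Dnmt3b (0.982) and Zscan10 (0.982). The search covered 11011 transcripts with a mean of at least 20 RPM. The same measure, in which each subunit is part of the mean, was 0.966 for Cct3 and 0.765 for Cct6a at the extremes of the 8 subunits. It was 0.879 for Hspe1 and 0.846 for Hspd1. The points share libraries and fall into the 2 states, so these values are descriptions of likeness over 16 groups.

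The reads of the libraries after 15 h of 4sU were compared with those without 4sU, and 0 of 10 genes passed at D0, at D6 or for the difference between the states. At D0 0.0242% of transcripts were called higher and as many lower, at D6 0.0193% lower and none higher, and for the difference 0.00483% lower and none higher. At an unadjusted p under 0.05 there were 0, 3 and 0 genes in turn, where 5.02%, 6.08% and 5.72% of transcripts were, and DESeq2 also called 0 in each. The 3 at D6 were Cct7 (log2 -0.54 ± 0.25 SE), Cct6a (0.54 ± 0.24) and Hspe1 (0.59 ± 0.29), each with an adjusted p of 0.786. The 95% interval of Hspe1 was 0.03 to 1.15, so that a doubling at D6 was within it.

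The conversion rate, the share of covered T positions read as C, showed how much 4sU each transcript had taken up. After 15 h of 4sU the 10 genes had mean rates between 1.15% (Tcp1) and 1.89% (Cct2) at D0 and between 3.82% (Tcp1) and 6.45% (Cct4) at D6. The rates over the whole libraries were 1.38% to 1.49% at D0 and 4.24% to 4.87% at D6. Relative to the rate of the library, 0 of 10 genes passed for a difference between D6 and D0 (edgeR), nor did any of 14426 transcripts (0% called in each direction, 766 at an unadjusted p under 0.05). The differences of the 8 CCT subunits ran from -0.36 to 0.36 on the log2 scale, with SE from 0.28 (Cct7) to 1.19 (Tcp1). The 95% interval was -0.58 to 0.52 for Cct7 and -2.32 to 2.35 for Tcp1. With covered T positions alone as the offset, which reads the rate itself, Cct7 and Cct8 passed as higher at D6, where 0.610% of transcripts did.

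The rate without any 4sU differed widely between the members. It was 0.44% ± 0.07 at D0 and 0.38% ± 0.13 at D6 in Cct7, and 0.48% ± 0.10 and 0.35% ± 0.14 in Cct8 (SD, n = 3). In Hspd1 it was 0.0028% ± 0.0030 and 0.0067% ± 0.0069, and in Hspe1 0.0074% ± 0.0084 and 0.0049% ± 0.0012. The mean over the whole libraries was 0.171% at D0 and 0.166% at D6. The unlabeled rate was thus 29.1% of the 15 h rate in Cct7 and 31.7% in Cct8 at D0, against 7.87% and 7.52% at D6, and at most 0.504% in Hspd1 and Hspe1. In Cct5 and Cct2 it was 20.1% and 13.2% of the 15 h rate at D0, against 8.61% and 2.31% at D6. Values for label left or taken up include this floor in every gene unless it is subtracted, and it weighs more at D0.

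**Figure D4:**
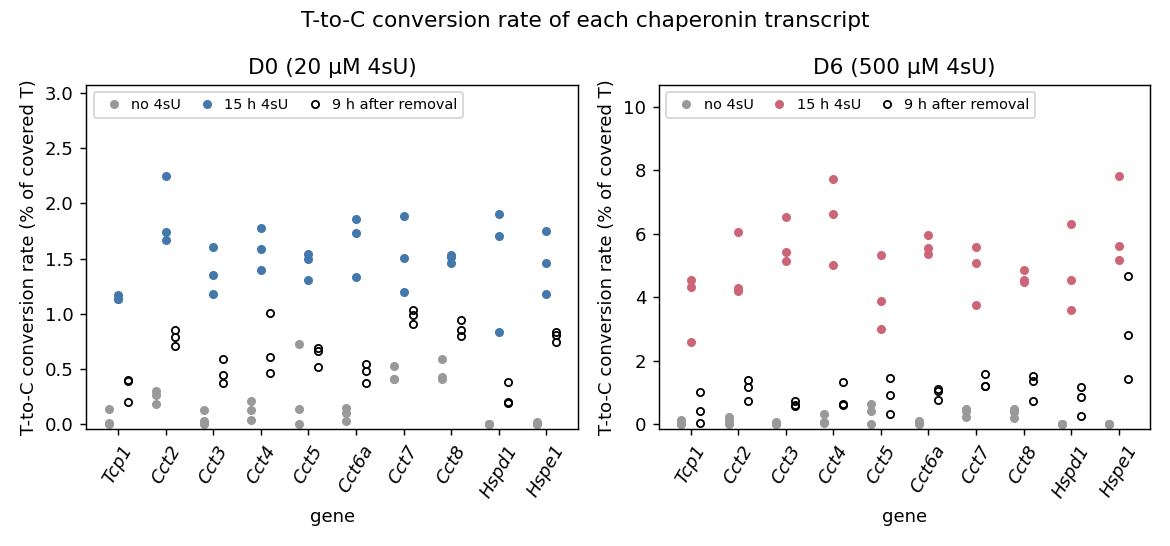
T-to-C conversion rate in percent of covered T positions for each chaperonin gene at D0 (left) and D6 (right, another scale), with 1 point a library without 4sU (grey), after 15 h of 4sU (color) and 9 h after its removal (open). Rates without 4sU stand out above 0 in Cct7 and Cct8, and after 9 h the Hspe1 points at D6 spread from 1.41% to 4.66%.

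The mean conversion rate of all 10 transcripts was lower 9 h after removal of 4sU than at 0 h. Relative to the library, less label was left in 3 of the 10 genes at D0 and in 5 at D6. The library rate was 29.2% of its 15 h value at D0 and 19.1% at D6, or 19.5% and 16.1% with the unlabeled rate subtracted. In Cct7 the rates at D0 were 1.501, 1.890 and 1.197% at 0 h and 0.90, 1.03 and 0.99% at 9 h, so that 63.7% was left. This was more than in the library (log2 of the relative label 1.13 ± 0.28 SE, adjusted p = 0.0478), where 0.139% of transcripts passed as higher and 0.229% as lower. The call was lost without any one of the 6 libraries (adjusted p from 0.0962 to 0.303), and with the unlabeled rate subtracted 48.9% was left (limma, adjusted p = 0.0750). Cct8 at D0 did not pass (0.98 ± 0.35 SE, adjusted p = 0.182), with 57.7% left and 38.04% after subtraction. Among the 10 genes, Cct7 alone passed at D0, and 0 passed at D6, where 0.104% of transcripts passed as higher and 0.0416% as lower.

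For Hspe1 the outcome depended on the test. Its rates at D0 were 1.75, 1.46 and 1.18% at 0 h and 0.74, 0.84 and 0.81% at 9 h, so 54.4% was left (54.2% after subtraction). At D6 they were 5.60, 5.18 and 7.83% at 0 h and 2.82, 4.66 and 1.41% at 9 h, so 47.7% was left, with a wide spread. By the count model it did not pass (log2 0.90 ± 0.57 SE, adjusted p = 0.432 at D0, and 1.29 ± 0.57, adjusted p = 0.265 at D6). By limma on background-subtracted rates it passed in both states (log2 1.49, adjusted p = 0.0214 at D0, and 1.43, adjusted p = 0.0382 at D6), where 1.19% and 0.534% of transcripts passed as higher in turn. Hspd1, which shares the promoter, had 17.4% left at D0 and 15.7% at D6, and by the count model did not pass at either (log2 -0.77 ± 1.19 SE and -0.27 ± 1.19 SE). The difference between Hspd1 and Hspe1 was not tested. Hspe1 had the most label left of the 10 genes at D6. At D0 Cct7 had the most with the unlabeled rate left in (63.7%) and Hspe1 the most with it subtracted (54.2%, against 48.9% in Cct7).

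All 8 CCT subunits had a smaller share of label left at D6 than at D0, as had the whole library. Cct3 had 34.3% at D0 and 11.1% at D6, Cct4 43.5% and 13.3%, Cct2 41.4% and 22.7%, and Cct6a 28.5% and 17.2%. Tcp1 had 28.7% and 12.8%, Cct5 42.9% and 22.1%, Cct7 63.7% and 27.7%, and Cct8 57.7% and 26.1%. With the unlabeled rate subtracted, Cct5 had 28.5% and 14.7%, Cct7 48.9% and 21.6%, and Cct8 38.04% and 20.1%. Cct2 then had 32.5% and 20.9%, Cct4 38.6% and 11.3%, and Cct6a 24.3% and 16.3%. Cct3 then had 31.6% and 10.7%, and Tcp1 25.4% and 11.7%. Relative to the library, the difference between the states ran from -1.08 (Cct4) to -0.11 (Cct6a) on the log2 scale over the subunits, with a median of -0.50. It was 0.39 in Hspe1 and 0.51 in Hspd1. None of the 10 passed, nor did any of 14426 transcripts (0% called in each direction), and 0 of 10 had an unadjusted p under 0.05 (edgeR), while DESeq2 also called 0. The 95% interval of the Cct7 difference was -1.37 to 0.18 and that of Tcp1 -3.78 to 2.83, so the second of these is too wide to read a direction from.

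Decay half-lives were fitted to the conversion rate over the mean rate at 0 h and kept where R squared was over 0.6. With the hours of the study (0, 3, 6 and 9 h), 4 of the 10 genes had a kept half-life at D0 and 5 at D6, where 15.6% and 16.9% of 14426 transcripts had one. All kept transcripts had a median of 281 min at D0, against 221 min at D6. Cct2 had 584 ± 89 min at D0, against 324 ± 92 min at D6 (SE of the fit), Cct6a 497 ± 93 and 360 ± 70 min, and Cct8 1089 ± 219 and 526 ± 146 min. These 3 genes were kept in both states, and all 3 half-lives were shorter at D6. Hspe1 was kept at D0 alone, with 850 ± 162 min, and Cct3 (263 ± 72 min) and Cct4 (284 ± 85 min) at D6 alone. With these hours and this minimum of R squared, the kept values of the chaperonins were above the median of all kept transcripts of the state. With no minimum of R squared the medians over transcripts were higher, at 405 min at D0 and 316 min at D6. Cct3 and Cct4 at D6 lay below the latter.

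With the first and last time points only, on whose hours the sources do not differ, all 10 genes had a kept decay half-life in both states, where 35.5% of transcripts had one at D0 and 51.4% at D6. These shares were not matched to the reads of the members. All 10 genes had shorter half-lives at D6, and the medians were 433 and 230 min in turn. All kept transcripts had medians of 179 and 169 min. Cct8 had 680 ± 42.3 min at D0, against 278 ± 28.6 min at D6, and Cct3 350 ± 60.5 and 170 ± 32.8 min. For Hspd1 the difference was within the errors, at 214 ± 101 and 202 ± 76 min, and likewise for Hspe1 at 615 ± 135 and 506 ± 183 min. The fitted half-lives of the states were not tested against each other. They include the floor of unlabeled conversions, which was not subtracted in the fit to 0 and 9 h. That floor lengthens fitted values and weighs more at D0, most in Cct8, Cct7, Cct5 and Cct2. With that floor subtracted in the fit to all time points, Cct2 and Cct6a were kept in both states and both were shorter at D6, with medians of 478 and 332 min, where 14.7% of transcripts were kept at D0 and 16.3% at D6. Cct2 then had 492 ± 81 and 310 ± 91 min, and Cct8 was kept in neither state, at 712 ± 163 and 482 ± 140 min. The sample labels give 1 and 3 h for the second and the third time points in place of 3 and 6 h. Library-wide rates at the second catabolic time point (1.39% to 1.44% at D0) were close to those at 0 h. With those hours 6 genes were kept in both states, all 6 shorter at D6, with medians of 492 and 215 min, where 23.98% of transcripts were kept at D0 and 25.3% at D6. Cct3 and Cct4 were then kept in both states, Cct3 with 469 and 137 min and Cct4 with 516 and 160 min. All kept transcripts had medians of 198 and 140 min with those hours, so that Cct3 at D6 lay just below the median.

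**Figure D5:**
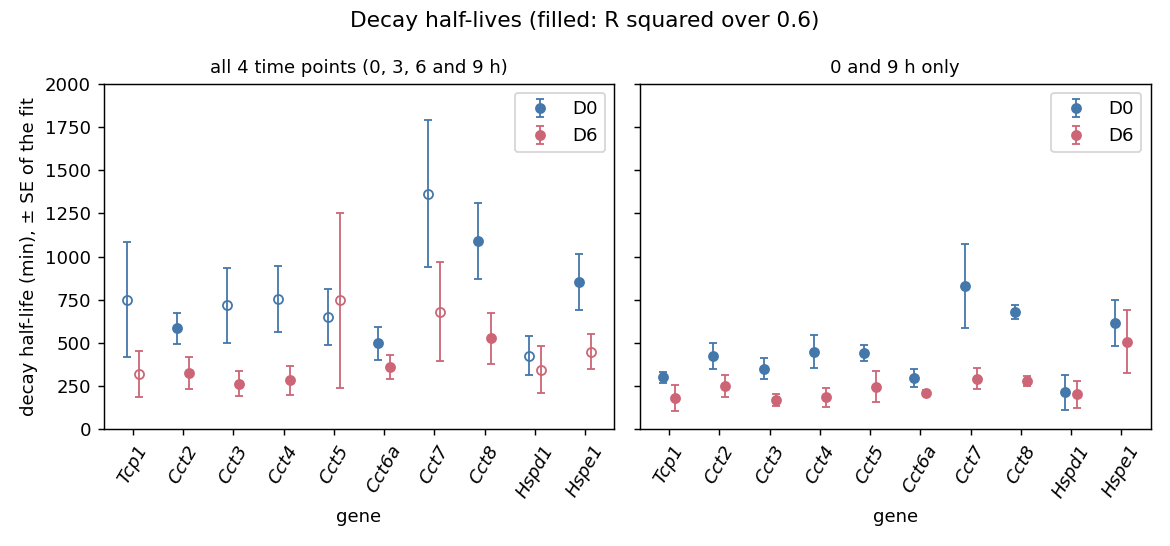
Decay half-life in min of each chaperonin gene at D0 and D6 with the SE of the fit, from all 4 time points (left) and from 0 and 9 h (right), where filled points have an R squared over 0.6. In the right panel every D6 point lies below its D0 point, by little in Hspd1 and Hspe1, and in the left panel Cct5 is the exception with a D6 value of 748 ± 507 min.

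Uptake of label was compared between 9 h and 15 h of 4sU. At 9 h the library rate was 87.5% of the 15 h rate at D0 and 77.8% at D6. In the chaperonins it lay between 55.01% (Cct5) and 83.9% (Cct6a) at D0, all below the library, and between 49.1% (Cct4) and 102% (Cct8) at D6. Relative to the library 0 of 10 genes passed at D0, at D6 or for the difference between the states, as did 0% of transcripts in each direction. At an unadjusted p under 0.05 there were 0 genes in each of the 3 comparisons (edgeR), and DESeq2 called 0 in each. Synthesis half-lives were kept for 5 genes at D0 and 3 at D6, where 22.1% and 10.2% of transcripts were kept. Of the 2 kept in both, Cct3 had 584 ± 128 and 391 ± 95 min and Cct6a 437 ± 98 and 442 ± 101 min. With the hours of the labels Cct3 had 387 and 244 min and Cct6a 283 and 284 min. With 0 and 9 h only they had 311 and 190 min and 205 and 231 min. In each of these settings 6 genes were kept in both states, 4 of them shorter at D6. Cct4 was longer at D6, with 265 and 602 min by the hours of the labels and 235 and 555 min with 0 and 9 h only. The library rate at the second anabolic time point at D0 (0.158% to 0.162%) was no higher than without 4sU (0.144% to 0.207%).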

How the data were processed

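SLAM-seq libraries of P19 cells (QuantSeq 3′ ends) were analysed from 47 per-library tables. Per the file headers, the authors made them with SLAMdunk 0.3.3 on mm10 3′ UTR intervals: raw whole-number counts per interval of reads, of T positions covered and of T-to-C conversions, with 0 multimapped reads. RPM are read counts scaled to the library's reads on 30432 distinct intervals, each interval counted once. Reads were tested with edgeR 4.0.16 (TMM, filterByExpr, quasi-likelihood F test) and conversions with the same test and an offset of covered T positions and library-wide rate, where the mean number of covered T positions reached 1000. Adjusted p is Benjamini-Hochberg over all transcripts tested. Half-lives used least squares, with a limit of 5000 min. DESeq2 1.42.0 and limma 3.58.1 served as alternatives, in R 4.3.3 with Python 3.11.15. Promoters came from RefSeq (GRCm38.p6). The methods were tested on simulated data. The 10 members, the lists and the tests were chosen with earlier results of these data known. Named genes were all members, the 2 called transcripts with the largest log2 fold change per list and direction, and the 5 genes most like the mean CCT subunit. Hsf1, Hsf2, Vim, Pax6 and markers at 0 were named outside this rule, after their values were seen. The study describes 3 biological replicates. Labels and the study differ on the hours of 2 time points, and the study's hours were used.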

Additional observations from a re-analysis of the deposited data

How the results depend on the processing

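No paired analysis was possible because the labels number each library uniquely. Without 4sU, members called lower numbered 5, 3 in the fit to all 47 libraries and 2 to 5 with 1 library left out. For either added mean of 8 or 7 conditions, most of them with 4sU, they numbered 10. Pairs of gene and condition called lower numbered 31 in all, and 25 to 42 with 1 library left out, where fits to 47 libraries kept the dispersion trend of the full fit. With 1 of the 6 libraries without 4sU left out, the median of the 8 CCT log2 fold changes was -0.98 to -0.64 and their SD 0.17 to 0.38. With covered T positions alone as the offset, the test follows the rate and not the relative label. Then 2 members were called higher for 15 h label (0.610% of transcripts were). For label left, 1 was called lower at D0 (20.9%) and 6 at D6 (34.6%). The log2 values for label left were below 0 in all 10 genes in both states, as the rates fell over the 9 h. The relative label is another quantity, and its sign was the opposite in 7 genes at D0 and 5 at D6. Among these, the values of the rate were -0.65 at D0 and -1.85 at D6 in Cct7. They were -0.79 at D0 in Cct8, and -0.88 at D0 and -1.07 at D6 in Hspe1. Limma on background-subtracted rates called 1 member for label left at D6 (Hspe1; 0.534% of transcripts were called higher), and at D0 called Hspe1 in place of Cct7 (1.19%). The call of Cct7 for label left at D0 was lost without any one library (0 called in each). Calls of members for 4sU exposure, uptake and differences in label left were 0 to 0 with 1 library left out. Kept decay half-lives at D0 (4) numbered 9 with the hours of the labels, 10 with 0 and 9 h only and 10 with no minimum of R squared. At D6 (5) they numbered 10 with 0 and 9 h only and 10 with no minimum. With 1 library left out they numbered 2 to 6 at D0 and 2 to 7 at D6. Kept synthesis half-lives at D0 (5) numbered 3 with background subtracted, 10 with no minimum and 0 with a free amplitude, and at D6 (3) 9 with the hours of the labels, 8 with 0 and 9 h only, 10 with no minimum and 0 with a free amplitude. With 1 library left out they numbered 2 to 6 at D0 and 3 to 6 at D6. Other causes of these shifts were not tested.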
